A study of Mus musculus with 2 samples.

Results

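The 5 miRNA genes that encode or lie opposite the oligodendrocyte miRNAs miR-219 and miR-338 were followed in the mouse cerebral cortex: Mir219a-1, Mir219a-2, Mir219c, Mir338 and Mir3065. They were taken by name, not by their values, from the 2202 miRNA genes counted in each library. The study holds 2 microRNA sequencing libraries from left cerebral cortex (total RNA) of female 5xFAD/CAST mice, 8 to 10 months old, labelled as biological replicates 1 and 2 of 1 group. 5xFAD is a transgenic line used as a model of amyloid deposition, with transgenes driven by the neuronal Thy1 promoter, and CAST refers to a wild-derived strain. Beyond the strain name the labels state no genotype, and there is no group without the transgenes, so no level below can be set against a control. Both libraries cite the same donor entry with separate tissue samples. Whether they came from separate animals is not stated, and differences between them may be technical.

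miR-219 and miR-338 are induced as oligodendrocyte precursors stop dividing and begin to make myelin. In that lineage they repress transcripts that keep precursors proliferating, among them those of the growth factor receptor Pdgfra and of the transcription factors Sox6 and Hes5. A miRNA is cut from a hairpin as a short duplex, and the strand kept in the Argonaute protein (the 5p or the 3p arm) pairs with targets mainly through its seed, bases 2 to 8 from the 5′ end. In the cerebral cortex mature oligodendrocytes are concentrated in the deep layers and the adjoining white matter.

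The mature arms listed for each gene show how its products differ. All 5 hairpins and 8 mature entries of these genes were found in RefSeq (build GRCm38.p6), without miR-219a-2-3p and miR-3065-3p, and the arms are shown 5′ to 3′ with the seed in capitals. The arms of Mir219b, which lies opposite Mir219a-2, are included for comparison with those of Mir219c.
miR-219a-5p, from both Mir219a-1 and Mir219a-2: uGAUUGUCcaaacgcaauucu
miR-219a-1-3p, from Mir219a-1: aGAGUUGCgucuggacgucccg
miR-219c-5p: gGACGUCCagacgcaacucucg
miR-219c-3p: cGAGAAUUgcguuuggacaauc
miR-219b-5p: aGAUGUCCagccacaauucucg
miR-219b-3p: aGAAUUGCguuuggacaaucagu
miR-338-3p: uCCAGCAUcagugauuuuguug
miR-338-5p: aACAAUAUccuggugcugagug
miR-3065-5p: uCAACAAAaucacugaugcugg

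These arms carried 9 different seeds, 1 for each sequence shown. The seeds were compared with the entries of other genes among the 1738 mature entries of RefSeq, and matches were then removed by chromosome, for part of the genome. No match with another gene remained. Whether any match was removed is not known here, so a seed shared with another gene is not excluded. Among these listed arms the 5 genes share a seed only through miR-219a-5p, the product common to Mir219a-1 and Mir219a-2. The genes on the other strand of each locus have seeds of their own in the listed arms, although these are complementary to the main products. miR-3065-5p overlaps miR-338-3p over 21 bases, miR-219b-3p overlaps miR-219a-5p over 21 bases and miR-219c-3p overlaps it over 20 bases, in each case on the opposite strand.

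The hairpins of the 2 miR-219a genes differ outside the arm they share. They are printed with the longest stretch common to both, 22 bases, in capitals, because a read lying within it cannot be assigned to either gene.
Mir219a-2: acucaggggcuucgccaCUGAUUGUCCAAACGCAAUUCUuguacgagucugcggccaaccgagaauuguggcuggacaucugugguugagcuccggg
Mir219a-1: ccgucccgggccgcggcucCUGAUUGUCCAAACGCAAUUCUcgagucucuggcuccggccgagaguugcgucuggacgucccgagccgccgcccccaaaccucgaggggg

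The shared stretch holds the whole of miR-219a-5p with 1 base before it. Of the 18-base windows of Mir219a-2, 5 of 80 occur in another annotated hairpin, and of those of Mir219a-1, 5 of 93. For Mir338 and Mir3065 the counts are 0 of 81 and 0 of 70, so neither shares a window of that length with another hairpin. The hairpins of Mir338 and Mir3065 are printed with their listed mature arms in capitals to show that they are read from opposite strands of 1 locus.
Mir338: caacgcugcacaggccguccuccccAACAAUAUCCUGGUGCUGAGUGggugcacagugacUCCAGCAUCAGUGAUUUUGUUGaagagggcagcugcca
Mir3065: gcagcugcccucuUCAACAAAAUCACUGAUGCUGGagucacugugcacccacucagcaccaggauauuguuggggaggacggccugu

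The 5 genes lie at 3 loci of mm10, each with 1 hairpin on the minus strand and 1 on the plus strand. Mir219a-2 (ENSMUSG00000065485.1) is intergenic on chromosome 2, from 29845631 to 29845727 on the minus strand, 629 bp from the end of Urm1. Its plus-strand counterpart Mir219b (ENSMUSG00000105010.1) spans 29845647 to 29845711. Mir219a-1 (ENSMUSG00000065555.1) lies on chromosome 17 from 34024983 to 34025092 on the minus strand, 303 bp from Ring1, and 88 of its 110 bases fall within the exon of the non-coding gene Gm26940. Mir219c (ENSMUSG00000105964.1) lies opposite, from 34025012 to 34025071. Mir338 (ENSMUSG00000065600.1) is in an intron of Aatk, which encodes a neural kinase, and has the same orientation, on chromosome 11 from 120014765 to 120014862 on the minus strand. Mir3065 (ENSMUSG00000105524.1) lies within Mir338 on the plus strand, from 120014767 to 120014853, antisense to Aatk.

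**Figure D1:**
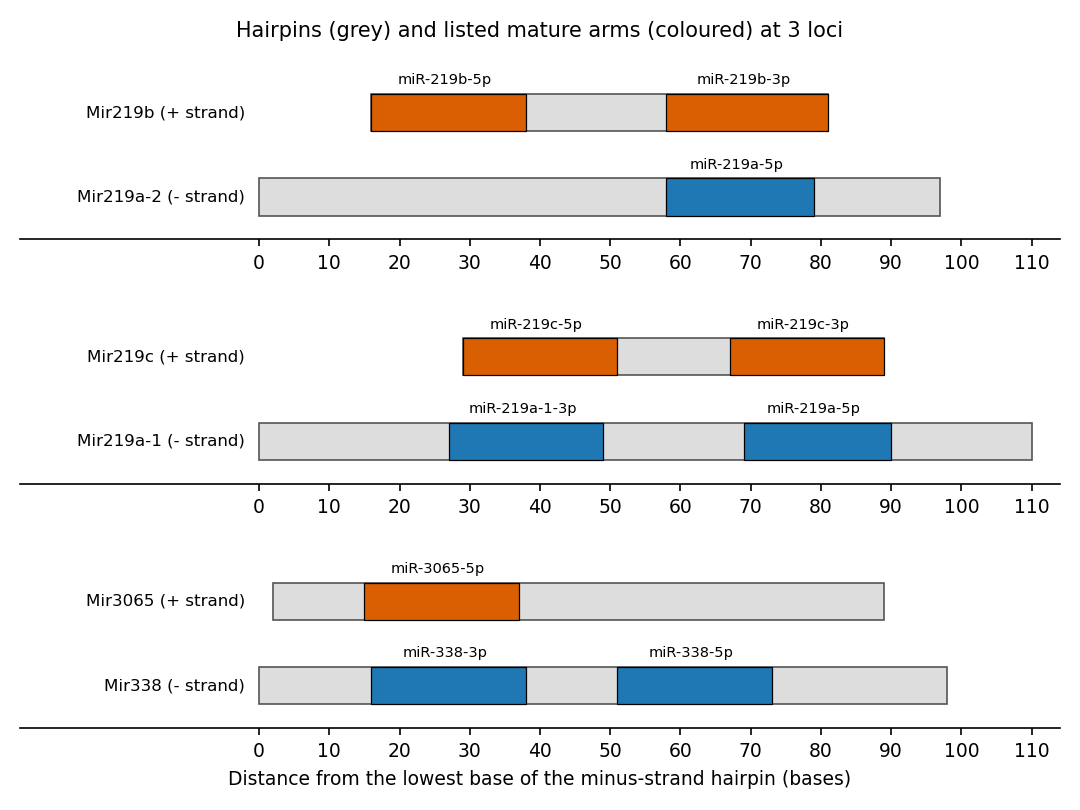
The 3 loci are drawn with distance in bases from the lowest base of the minus-strand hairpin on the x axis, hairpins in grey and the RefSeq mature arms in blue (minus strand) or orange (plus strand). Each plus-strand hairpin lies within its minus-strand counterpart, and the overlaps are 65, 60 and 87 bases.

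The tables held 4226300 counts on the strand of a miRNA gene in replicate 1 and 5162369 in replicate 2. These are the counts behind all levels, given as CPM (counts scaled to a total of 1000000). A row is a whole hairpin, so 5p and 3p arms are summed. Multi-mapped reads, 40.4% and 39.4% of all reads, have no gene in the tables. Of 14 neuron markers, 11 reached 10 CPM in both libraries, led by Mir127, an imprinted miRNA gene, and Mir132, which is induced by neuronal activity. The exceptions were the 3 Mir124a genes, whose product is abundant in neurons, at 17 and 28 counts together. Reads that match more than 1 Mir124a gene would be multi-mapped, so these counts do not show a low level of that product. In a list of genes of other tissues, 5 of 10 had no count, as had 1427 of all 2202 genes. With so many zeros over all genes, the list does not show those tissues to be absent. Its highest were Mir140, known from cartilage, at 2656 and 693 CPM, the liver gene Mir122 at 48.5 and 86.6 CPM and the muscle gene Mir206 at 38.6 and 52.3 CPM.

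Of the 5 genes 2 were abundant, and they carried nearly all of the signal. Mir219a-2 had 14689 counts (3476 CPM) in replicate 1 and 15993 (3098 CPM) in replicate 2, with a mean of 3287 CPM ± 267 (SD, n = 2). Mir338 had 15281 counts (3616 CPM) and 11516 (2231 CPM), with a mean of 2923 CPM ± 979. By mean CPM these genes ranked 50th and 55th of 2202, above 83.8% and 82.2% of the 309 genes that reached 10 CPM in each library. The median of those 309 genes was 249.5 CPM, so Mir219a-2 stood 13.2-fold and Mir338 11.7-fold above it. Reads equal to miR-219a-5p also match Mir219a-1 and would be multi-mapped, so the level, rank and fold of Mir219a-2 leave them out. Mir338 shares no 18-base window with another annotated hairpin, so the 2 levels are not like measures. In bulk tissue, fewer cells of a type and less RNA per cell cannot be told apart.

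The other members were low. Mir219a-1 lay near the 10 CPM threshold, and Mir3065 and Mir219c had 7 counts or fewer in each library. Mir219a-1 had 35 and 65 counts, or 8.28 and 12.6 CPM, with exact 95% intervals of 5.77 to 11.5 and 9.72 to 16.0 CPM, and a mean of 10.4 ± 3.05. Mir3065 had 0 counts in replicate 1 and 7 counts (1.36 CPM, interval 0.545 to 2.79) in replicate 2. The 0 counts of replicate 1 allow up to 0.710 CPM. Mir219c had 2 counts in replicate 1, or 0.473 CPM (interval 0.0573 to 1.71), and 0 in replicate 2, which allows up to 0.581 CPM. A limit for 0 counts is set at 3 counts. The upper ends of the exact 95% intervals are higher, at 0.873 CPM for Mir3065 in replicate 1 and 0.715 CPM for Mir219c in replicate 2. Intervals and limits cover counting error alone.

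In order of mean level, Mir219a-2 and Mir338 came first, then Mir219a-1, then Mir3065 and Mir219c. The levels of Mir219a-2 and Mir219a-1 in this order leave out multi-mapped miR-219a-5p reads. Neighbours in this order did not all separate. Mir219a-2 and Mir338 overlapped, since Mir338 was the higher in replicate 1 and the lower in replicate 2. Mir3065 and Mir219c overlapped too, each with 0 counts in 1 library. The steps from Mir338 to Mir219a-1 and from Mir219a-1 to Mir3065 were larger than the spread between libraries, and the counts of these genes did not overlap.

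**Figure D2:**
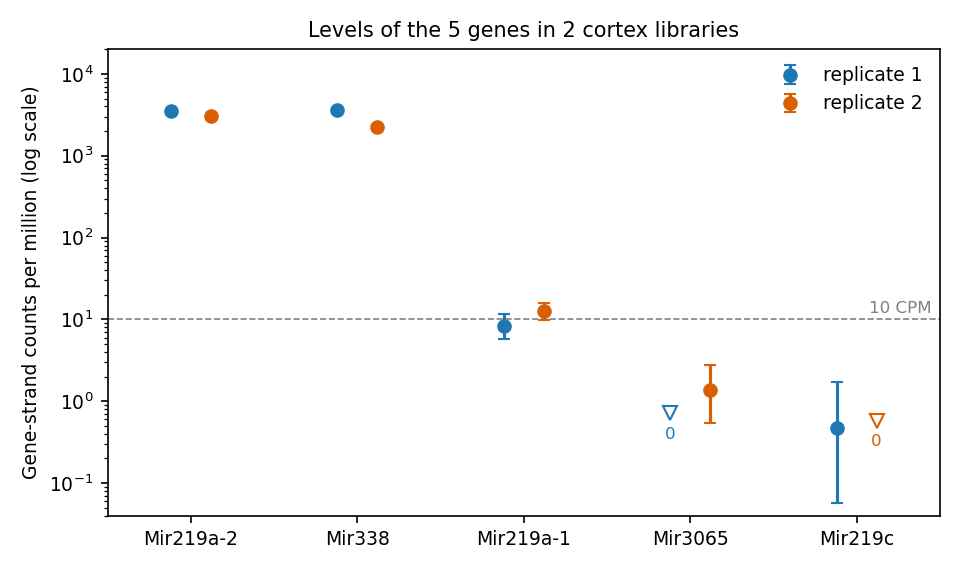
Gene-strand CPM on a log scale for the 5 genes in replicate 1 (blue) and replicate 2 (orange), with exact 95% intervals that are smaller than the symbols for the first 2 genes. Open triangles marked 0 stand at the limit of 3 counts, and the dashed line is 10 CPM, which only Mir219a-2 and Mir338 exceeded in both libraries.

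Together the 5 genes took 0.710% of the counts in replicate 1 (exact 95% interval 0.702 to 0.718) and 0.534% in replicate 2 (0.528 to 0.541). Mir219a-2 and Mir338 supplied 99.9% of that sum in replicate 1 and 99.7% in replicate 2. Their balance differed between the libraries. Replicate 1 had 0.961 Mir219a-2 counts per Mir338 count (interval 0.940 to 0.983) and replicate 2 had 1.39 (1.36 to 1.42). This ratio does not depend on how the libraries are scaled, and its intervals do not overlap. Its Mir219a-2 counts leave out multi-mapped miR-219a-5p reads, so it does not measure the relative output of the 2 miRNAs.

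The 2 genes that encode miR-219a-5p had very unlike counts. Mir219a-1 held 0.238% of the counts of the pair in replicate 1 (35 of 14724, interval 0.166 to 0.330) and 0.405% in replicate 2 (65 of 16058, interval 0.313 to 0.516). For each Mir219a-1 count there were 420 and 246 Mir219a-2 counts. A read equal to miR-219a-5p matches both hairpins over its 21 bases and would be multi-mapped. Apart from reads with mismatches, these counts can therefore come only from reads that reach past the 22 shared bases or from other parts of the hairpins. Such reads set the ratio, and it does not measure how much miR-219a-5p either gene supplied. How many of the multi-mapped reads were miR-219a-5p was not analysed here.

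The count column decided whether these genes were seen at all. Column 3 counts reads on the strand of the gene, column 4 those on the opposite strand and column 2 those on either strand. In column 2 all 5 genes had 0 counts in both libraries, since a read lying over 2 overlapping genes is set aside there as ambiguous. The counts on the 3 loci made up 10.5% of the 284860 ambiguous reads of replicate 1 and 7.58% of the 363820 of replicate 2. Column 4 mirrored column 3 exactly. Mir3065 had 15281 and 11516 opposite-strand counts, which equal the gene-strand counts of Mir338, and Mir338 had 0 and 7, which equal those of Mir3065. Mir219c had 35 and 65 opposite-strand counts and Mir219a-1 had 2 and 0. Mir219a-2 had none in either library, while Mir219b had 14689 and 15993.

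**Figure D3:**
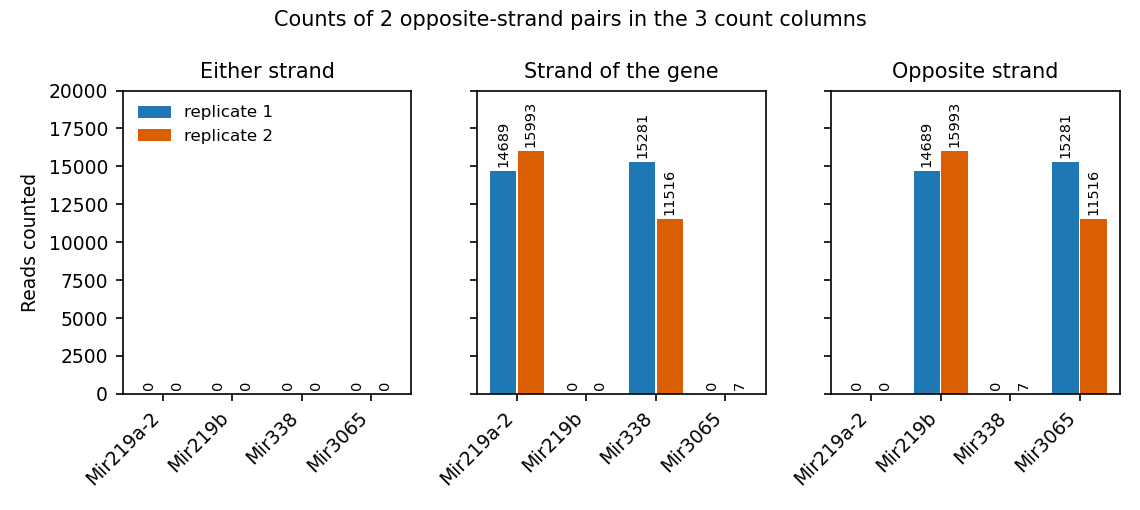
Reads counted for Mir219a-2, Mir219b, Mir338 and Mir3065 in the 3 count columns, with bars for replicate 1 (blue) and replicate 2 (orange) and the count above each bar. The same reads stand at 0 in the either-strand column, on Mir219a-2 and Mir338 in the gene-strand column, and on Mir219b and Mir3065 in the opposite-strand column.

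The reads of each locus fell almost entirely on 1 strand. Of the counts on Mir338 and Mir3065, Mir3065 held 0 of 15281 in replicate 1, which allows a share of up to 0.0196%, and 0.0607% in replicate 2 (7 of 11523, exact 95% interval 0.0244 to 0.125). Mir219b held 0 of 14689 and 0 of 15993 counts at the Mir219a-2 locus, which allow up to 0.0204% and 0.0188%. At the third locus Mir219c held 5.41% in replicate 1 (2 of 37, interval 0.661 to 18.2) and 0 of 65 in replicate 2, which allows up to 4.62%. That share rests on 2 reads. Reads of the lesser strand that match more than 1 place are not in these counts, and miR-219b-3p and miR-219c-3p share 20 bases.

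Other well-covered miRNA genes that overlap on opposite strands were also close to one-sided. There are 32 such pairs, 64 genes in all, and 18 pairs had at least 1000 counts over both libraries. The Mir219a-2 pair ranked 5th and the Mir338 pair 6th by counts. Among the other 16 pairs, 12 had no count on the lesser strand, and the highest share was 0.199%, for Mir129b opposite Mir129-2. The pairs with the most counts were Mirlet7e with Gm25927 (279065 counts, 0 on the lesser strand), Mir126a with Mir126b (100520 counts, 1 on the lesser strand) and Mir191 with Gm24083 (88317 counts, 0 on the lesser strand). Pairs with few counts were less uniform. Of the 11 other pairs with fewer than 1000 counts but at least 1, 8 had none on the lesser strand and 3 had some. The lesser strand held 11.1% for Mir24-1 with Mir3074-1 (513 counts, 2.05% in replicate 1 and 29.1% in replicate 2), 23.5% for Mir486 with Mir3107 (375 counts) and 10.0% for Mir1b with Mir1a-2 (20 counts), beside 1.96% at the Mir219a-1 locus (102 counts). Outside such pairs, opposite-strand counts made up 0.00439% and 0.00419% of the counts on miRNA genes. With both libraries summed, Mir3065 held 0.0261% of its pair (interval 0.0105 to 0.0538), which lies above that background share, but all 7 counts came from replicate 2, and the limit of 0.0196% in replicate 1 lies above the background share, so that library does not separate the 2.

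**Figure D4:**
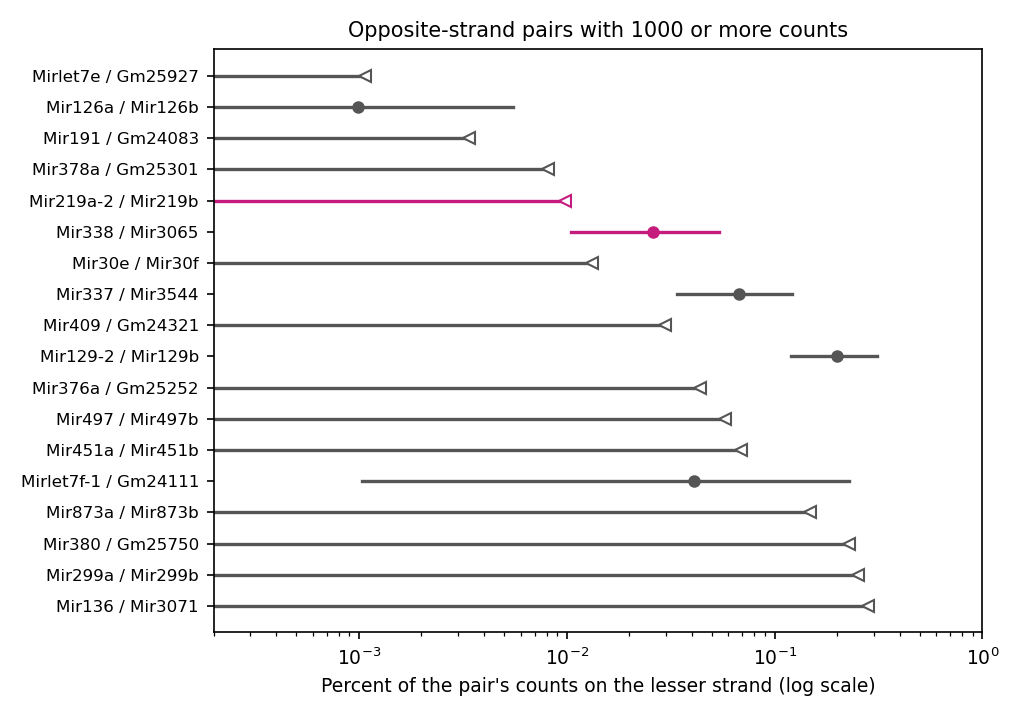
Percent of each pair's counts on the lesser strand, both libraries summed, on a log scale for the 18 opposite-strand pairs with 1000 or more counts, ordered by counts. Points with lines are shares with exact 95% intervals, open triangles are limits of 3 counts where the share was 0, and the pairs with Mir219a-2 and Mir338 (magenta) lie among the others.

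The only contrast in the design is replicate 2 against replicate 1. It compares those libraries, not conditions, and has no replicate check. The test was an exact binomial one, two-sided, against counting error, run on every gene with 10 or more counts in both libraries together, and p-values were adjusted over all of them by the Benjamini-Hochberg method. Of 3 members tested, 2 were called, both higher in replicate 1, as were 34.2% of the 546 tested genes. In either direction 58.8% were called, and 24.5% were higher in replicate 2. A share of calls near that background is not a result about these genes. Scaled for library size, Mir338 was 1.66-fold higher in replicate 1 (exact 95% interval 1.62 to 1.70, log2 ratio -0.73), with an adjusted exact binomial p too small to be represented. Mir219a-2 was 1.15-fold higher in replicate 1 (interval 1.12 to 1.17, log2 ratio -0.20, adjusted exact binomial p = 4.12e-32). With a biological coefficient of variation (BCV) fixed at 0.1, the edgeR exact test kept the call for Mir338 (adjusted p = 0.00272) and not for Mir219a-2 (adjusted p = 0.518). The common BCV that edgeR estimated from these 2 libraries over all tested genes was 0.484, far above that setting, so the kept call rests on the value assumed.

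Mir219a-1 pointed the other way, with a log2 ratio of 0.56, and was not called (adjusted exact binomial p = 0.109). Its exact interval for replicate 2 over replicate 1 ran from 0.972 to 2.31, so 65 against 35 counts did not show a difference between the libraries at this depth. Mir3065 and Mir219c had too few counts to be tested. Among 74 genes at a mean of 1000 to 10000 CPM, the range that holds both abundant members, 70 were called and the median fold was 1.28. The absolute log2 ratio of Mir338 was exceeded by 16 of these genes and that of Mir219a-2 by 49.

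**Figure D5:**
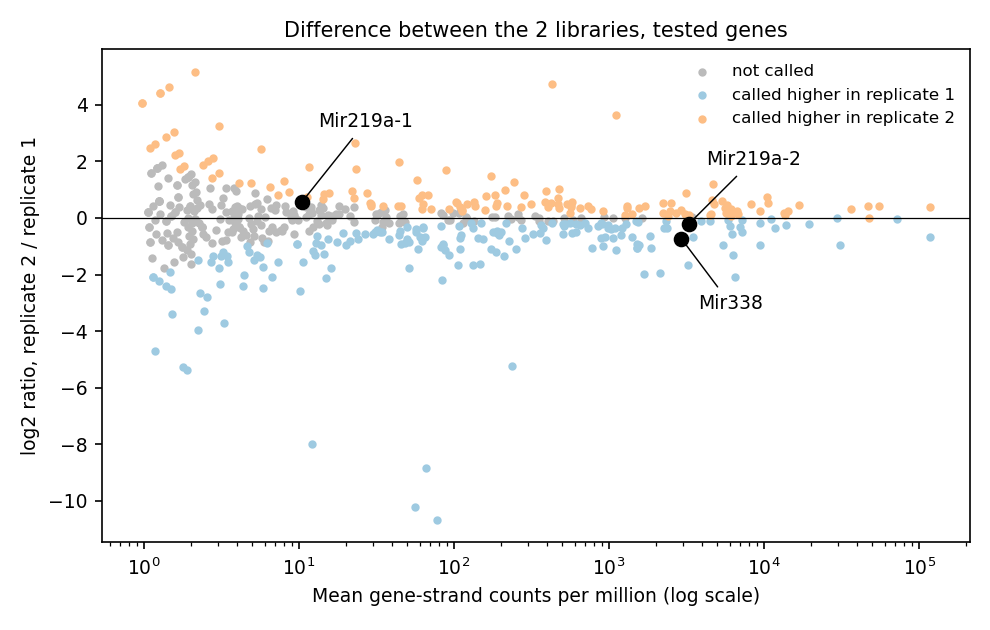
The log2 ratio of replicate 2 to replicate 1 against mean CPM (log scale) for the 546 tested genes, coloured by the exact binomial call. Mir219a-2 and Mir338 lie below 0 and Mir219a-1 above it, all within the cloud of genes of like abundance.

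Cell type markers also moved between the libraries, and their part in the difference of the members was not tested. Over all tested genes 34.2% were called towards replicate 1 and 24.5% towards replicate 2. The lists share some genes, such as Mir143 in the astrocyte list and the endothelium and mural list, so their sums are not separate. The 14 neuron markers summed to 11.5% of counts in replicate 1 and 9.94% in replicate 2, of which 8 were called towards replicate 1 and 3 towards replicate 2. The 7 astrocyte markers summed to 4.31% and 3.75%, with 6 and 1 called in those directions. The 7 microglia and immune markers summed to 1.03% and 0.567%, with 5 and 1. Mir219a-2 and Mir338 were also called towards replicate 1. The 5 endothelium and mural markers summed to 1.33% and 1.93%, with Mir126a, an endothelial gene, at 7756 and 13122 CPM. Mir126a and Mir143 were called towards replicate 2 and Mir145a towards replicate 1, and Mir145b and Mir126b had 1 count each over both libraries. The 5 blood markers summed to 0.00897% and 0.0890% with 2 calls in each direction, and most of the second sum was the erythroid gene Mir451a, at 30.0 and 821 CPM. The 10 choroid plexus and ependyma markers summed to 0.101% and 0.169%, with 1 called towards replicate 1 and 5 towards replicate 2. Mir451b was at 0 in the blood list and Mir449b in the choroid plexus list.

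A list of 30 other miRNA genes with reported roles in the oligodendrocyte lineage gave the wider setting. Of these, 23 were detected, 26 were tested and 22 were called, 11 in each direction. Over all genes 321 of 546 tested were called, and 70 of the 74 at a mean of 1000 to 10000 CPM. The median log2 ratio of the list was 0.13 beside -0.07 over all tested genes. Several genes of the list are also among the markers above. These are the miR-29 genes for astrocytes, and Mir138-1, Mir212 and the Mir124a genes for neurons. Mir146 is also an immune marker, Mir204 a choroid plexus marker and Mir145a a mural marker. The most abundant gene of the list was Mir29a, of the miR-29 family, at 13028 and 10512 CPM. Mir125a, whose 3p arm has been linked to slower oligodendrocyte maturation, stood at 12289 and 6545 CPM and had a log2 ratio of -0.94, called higher in replicate 1. Mir23a, which represses lamin B1 and favours myelination, stood at 6783 and 9784 CPM, called higher in replicate 2 with a log2 ratio of 0.50. Mir138-1 stood at 4244 and 4820 CPM and Mir138-2 at 2577 and 3206 CPM, both called higher in replicate 2. The miR-138 genes have been linked to the early stage of oligodendrocyte differentiation. In replicate 1 Mir219a-2 and Mir338 lay between these 2 genes, and in replicate 2 they lay below both. Reads that match both miR-138 genes, or both miR-219a genes, would be multi-mapped, so this order holds only for reads assigned to 1 gene.

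Among all tested genes, those with levels most like Mir219a-2 over the 2 libraries were Mirlet7f-2 at 3327 and 3476 CPM, Mir598 at 3105 and 3438 CPM and Mir34a at 2921 and 3268 CPM. Likeness is the Euclidean distance over log2(CPM + 1), which was 0.18, 0.22 and 0.26. These 3 genes were slightly higher in replicate 2 in CPM, where Mir219a-2 was slightly lower. The genes nearest to Mir338 were Mir342 at 4273 and 2729 CPM (distance 0.38), Mir298 at 2633 and 2079 CPM (0.47) and Mir219a-2 itself (0.48). Mir342, counted here among the immune genes, had a log2 ratio of -0.68 beside the -0.73 of Mir338. With 2 libraries such likeness describes levels only.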

How the data were processed

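Small RNA of the left cerebral cortex was sequenced in 2 libraries of 1 group, with a size range under 30 nt per the labels. The authors deposited 1 table of raw read counts per library, with 1 row per miRNA gene of GENCODE M21 on mm10, per the record beside each file. The aligner, counter and trimming, with their versions, were not given in the sources used here. What the 3 count columns hold was worked out from totals and annotated strands. The 4 rows that name no gene (67.4% and 67.6% of reads) stayed out of library sizes and tests. All 2202 IDs matched M21.

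Column 3 was the measure throughout. CPM used all counts on miRNA genes. Library ratios used TMM scaling (edgeR 4.0.16) with 0.5 counts added, and exact binomial tests (scipy 1.17.1) used a threshold of 0.05. edgeR's quasi-likelihood test needs replicates on each side and was not run. Detected means 10 CPM or more in both libraries. Intervals for shares are Clopper-Pearson, at 95%. Limits for a count of 0 are set at 3 counts and are not such intervals. The exact binomial test was tried on simulated counts with counting error alone, which says nothing about further spread between libraries. Sequences came from RefSeq (GRCm38.p6) and hairpin comparisons from M21 transcripts, without a genome search. Reads from CAST alleles could map less well, which was not analysed here.

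Named were the members, Mir219b, the 3 genes nearest to each abundant member, the top 5 lineage genes and the 3 largest other pairs. Genes sharing a seed were to be named too, and there were none among the matches kept after removal by chromosome. Other genes were named after their values were seen. Members and lists were chosen with earlier results of these data known. Alternatives were DESeq2 1.42.0 size factors, total counts, other filters and denominators, another added count, a fixed BCV, the unstranded column and each library alone.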

Additional observations from a re-analysis of the deposited data

Results flagged for a closer look

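Multi-mapped reads, which enter no comparison above, numbered 5244644 in replicate 1 and 6290303 in replicate 2, above the limit of 3 counts that a count of 0 allows. This is 174.8 and 228.1 such reads for each count on the 5 genes. A total over a library passes that limit in any case. The tables do not name the genes of these reads, so the part that was miR-219a-5p was not analysed here.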

How the results depend on the processing

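The numbers of differing genes and of differing members stayed within 1.5 times of 321 and 2 with DESeq2 size factors, total counts or other filters. With at least 1 count in the sum 3 members were called, as Mir3065 passed (adjusted exact binomial p = 0.0476). With the BCV fixed at 0.1 in the edgeR exact test, 157 genes and 1 member were called. With the unstranded column 0 members were tested or called, and their share of counts was 0% in place of 0.622%, because these 5 genes have no counts there. Over all reads of the table, the share was 0.202%, a larger denominator by construction. Without each replicate in turn the share was 0.534% to 0.710%, which for 2 libraries says nothing about stability. The share of Mir3065 in its pair ran from 0% to 0.0607% in the same way, that of Mir219c from 0% to 5.41% and that of Mir219b was 0% in each. Summing both libraries gave 0.0261%, 1.96% and 0%. Other scalings or another added count can move the ratio, while the filters and the fixed BCV left it as it was by construction. Under those 3 alternatives the log2 ratio kept its sign, from -0.20 to -0.13 for Mir219a-2, -0.73 to -0.66 for Mir338 and 0.57 to 0.63 for Mir219a-1. The test between libraries cannot be made with 1 left out. The depth limits Mir219a-1, Mir219c and Mir3065, each at 100 counts or fewer over both libraries.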
